A study of Mus musculus with 15 samples.

Results

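The nuclear genome carries most of the subunits of the oxidative phosphorylation machinery, and 72 of the 23420 genes in the count tables of embryonic mouse lung belong to this set. They were chosen by gene name alone: all Nduf genes of the a, b, c, s and v series (36 genes of complex I), all Uqcr genes (8 of complex III), the widely expressed Cox subunit genes (11 of complex IV) and all Atp5 genes (17 of ATP synthase, complex V). The choice took in a few genes that are not structural subunits of the complex they are named for. Ndufa4 is now placed with complex IV, Cox7a2l is a factor that joins complexes III and IV, and Atp5s and Atp5sl are coupling and assembly proteins. They were kept under their names. The 72 genes lie on 19 chromosomes. Ndufs5, an accessory subunit of complex I, had 0 counts in all 15 libraries, and the other 71 genes passed the filter on low counts in every comparison. The ribosomal protein gene Rpl26 and the globin genes Hba-a1, Hba-a2 and Hbb-b1 were also at 0 in every group. Whether such zeros stem from expression or from the counting was not tested.

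The respiratory chain of the inner mitochondrial membrane takes electrons from NADH at complex I and from succinate at complex II, passes them through ubiquinone, complex III and cytochrome c, and hands them to oxygen at complex IV. Complexes I, III and IV pump protons as they do so, and ATP synthase uses the returning protons to make ATP. A handful of subunits are encoded in mitochondrial DNA and were not analysed here. The rest are nuclear genes, whose promoters are known for sites of the factors NRF1, the GABP (ETS family) complex and YY1.

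All lungs were of wild-type embryos of the outbred mouse strain CD1, and the 15 RNA-seq libraries of whole lung fall into 5 groups of 3. For the high pressure and the low pressure group, lungs isolated at E12.5 (E stands for embryonic day) were cultured for 48 h with high or with low transmural pressure (the difference in pressure between the inside and the outside of the airways). For the other 3 groups, lungs came straight from embryos without culture, at E12.5, at E13.5 or at E14.5. Each library of high pressure, E13.5 and E14.5 lungs pooled 3 lungs and each library of low pressure and E12.5 lungs pooled 6. Pool size and pressure therefore cannot be told apart, nor can pool size and age in comparisons with E12.5. Whether the pools of a group stem from different litters or from different culture runs is not in the labels, so the spread behind each p-value is that of these pools and may be technical. The question was how the subunit genes of each complex varied with pressure in culture and with age in the embryo.

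Library totals were 31843739 to 44341263 counts in cultured lungs and 18837343 to 21955244 in freshly isolated lungs. Markers of lung tissue were present in every group: the 9 epithelial markers, Nkx2-1 among them, and the 7 mesenchymal markers, Tbx4 among them, were above 0 in each. Some libraries stood apart. Replicate 1 of every stage gave 3.41 to 4.13% of its counts to cytosolic ribosomal protein genes, against 1.69 to 2.15% in replicates 2 and 3, and replicate 3 of low pressure had counts for 14637 genes, against 16465 to 16729 in the other 14 libraries. For subunit genes described one by one, values without low pressure replicate 3 are given where they change a call or a sign, and the genes called between stages are also given without replicate 1.

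The subunit genes took 0.613, 0.637 and 0.615% of the counts in the high pressure libraries, against 0.509, 0.507 and 0.476% in the low pressure libraries. The groups did not overlap, and the same held for the share of each of the 4 complexes alone. In freshly isolated lungs the share was 0.821, 0.601 and 0.553% at E12.5, 0.881, 0.543 and 0.501% at E13.5, and 0.953, 0.622 and 0.568% at E14.5 (replicates 1, 2 and 3). At each stage replicate 1 was the highest by a wide margin, and the spread between replicates was larger than any difference between stages. The share is a fraction of all RNA in a bulk sample, in which fewer cells of a type and less RNA per cell cannot be told apart.

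**Figure D1:**
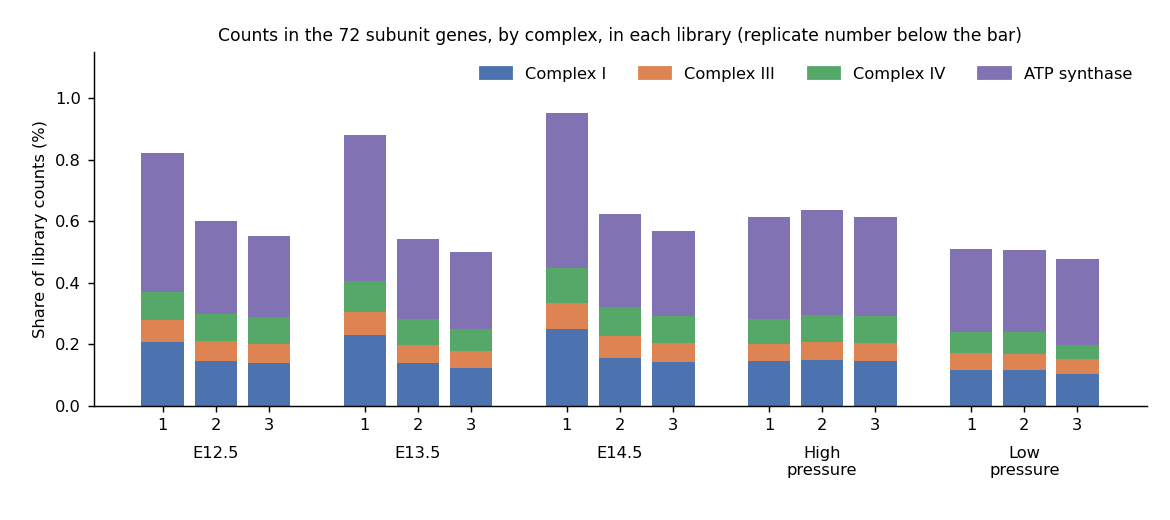
Share of each library's raw counts (%, vertical axis) taken by the 72 subunit genes, with 1 bar per library, replicate numbers below and colours for the 4 complexes. High pressure bars reach 0.613 to 0.637% and low pressure bars 0.476 to 0.509%, while replicate 1 of each stage stands above replicates 2 and 3.

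Levels per transcript length differed widely between the subunits, and ATP synthase genes were the highest group. In CPM (normalised read counts, scaled to each library's size) per kilobase of transcript, the median ATP synthase gene stood at 141 in E14.5 lungs, the median complex IV gene at 102, the median complex III gene at 73.0 and the median complex I gene at 43.1. The same order of the 4 medians held in high pressure lungs (68.4, 57.0, 55.9 and 27.7) and in low pressure lungs (54.7, 41.1, 43.7 and 17.0), except that complex III lay above complex IV at low pressure. Atp5g3, a gene of the rotating c-ring, and Atp5b, the catalytic beta subunit, led at E14.5 with 556 and 549 CPM per kilobase. Atp5s and Atp5sl were the lowest of the 71 there with 7.19 and 7.91, followed by Ndufv3, a small complex I subunit, with 8.71. The cultured and the fresh libraries were scaled separately, so levels are not compared across the 2 tables.

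In the fit by pressure alone, the median subunit gene lay higher at high than at low pressure in each of the 4 complexes. By edgeR's quasi-likelihood test with adjusted p below 0.05, 32 of the 71 tested genes rose and 2 fell (Ndufb2 and Uqcrc2). Among all 14937 genes tested, 14.0% rose and 12.2% fell. The counts that rose were 16 of 35 in complex I, 4 of 8 in complex III, 5 of 11 in complex IV and 7 of 17 in ATP synthase. The median log2 fold change over the 71 genes was 0.49, against 0.01 over all genes tested, and 63 of the 71 values were positive. Complex medians were 0.52 for complex I, 0.50 for complex III, 0.47 for complex IV and 0.33 for ATP synthase. The 3 libraries of high pressure all lay above the 3 of low pressure for 45 of the 71 genes, where 25.0% of all genes did so, and all below for 2, where 21.8% did so.

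Without low pressure replicate 3, 43 subunit genes rose and 2 fell (22.1% of all genes rose and 18.9% fell), the 32 genes above were all among them, and the median was 0.46. The 11 genes added were Ndufa8, Ndufa11, Ndufa13, Ndufb8, Ndufv2, Uqcrfs1, Uqcr11, Cox7a2l, Atp5g2, Atp5j2 and Atp5o. Of genes not called either way, Uqcr10, Cox5a, Atp5f1, Atp5g3, Atp5sl and Ndufa9 changed sign. DESeq2 called 35 up and 2 down (29.5% of all genes in either direction). Leaving out high pressure replicate 1, 2 or 3 instead gave 21, 19 and 20 calls in either direction in place of 34. Subunit genes are short, with a median transcript of 714 bases against 2836.5 for all genes tested. With offsets that take out each library's trend with GC content and transcript length, 10 genes rose and 2 fell (20.8% of all genes in either direction), where 10.2% of all genes rose and 10.6% fell. The median then was 0.19, against -0.02 over all genes. By role, medians with the offsets were 0.41 and 0.29 for core and accessory subunits of complex I. They were -0.03 for the core proteins and Rieske subunit of complex III, 0.42 for its small subunits and 0.21 for complex IV subunits. In ATP synthase they were 0.18 for the F1 head and central stalk, 0.19 for the peripheral stalk, -0.21 for the c-ring genes and 0.23 for the small membrane subunits. Genes that passed with these offsets included Ndufs4, Ndufv1, Ndufv2, Ndufb3, Ndufa4, Uqcrb, Cox6b1, Atp5a1 and Atp5h upward, and Ndufb2 and Uqcrc2 downward. With replicate numbers as a block added, 11 passed (15.2% of all genes). In 1 edgeR fit of all 15 libraries, which share an estimate of the spread, 6 genes rose (3.68% of all genes) and 0 fell (3.82%), where 16 and 0 had an unadjusted p under 0.05. The 6 were Ndufa2, Ndufb7, Uqcrh, Cox6a1, Atp5g1 and Atp5k.

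**Figure D2:**
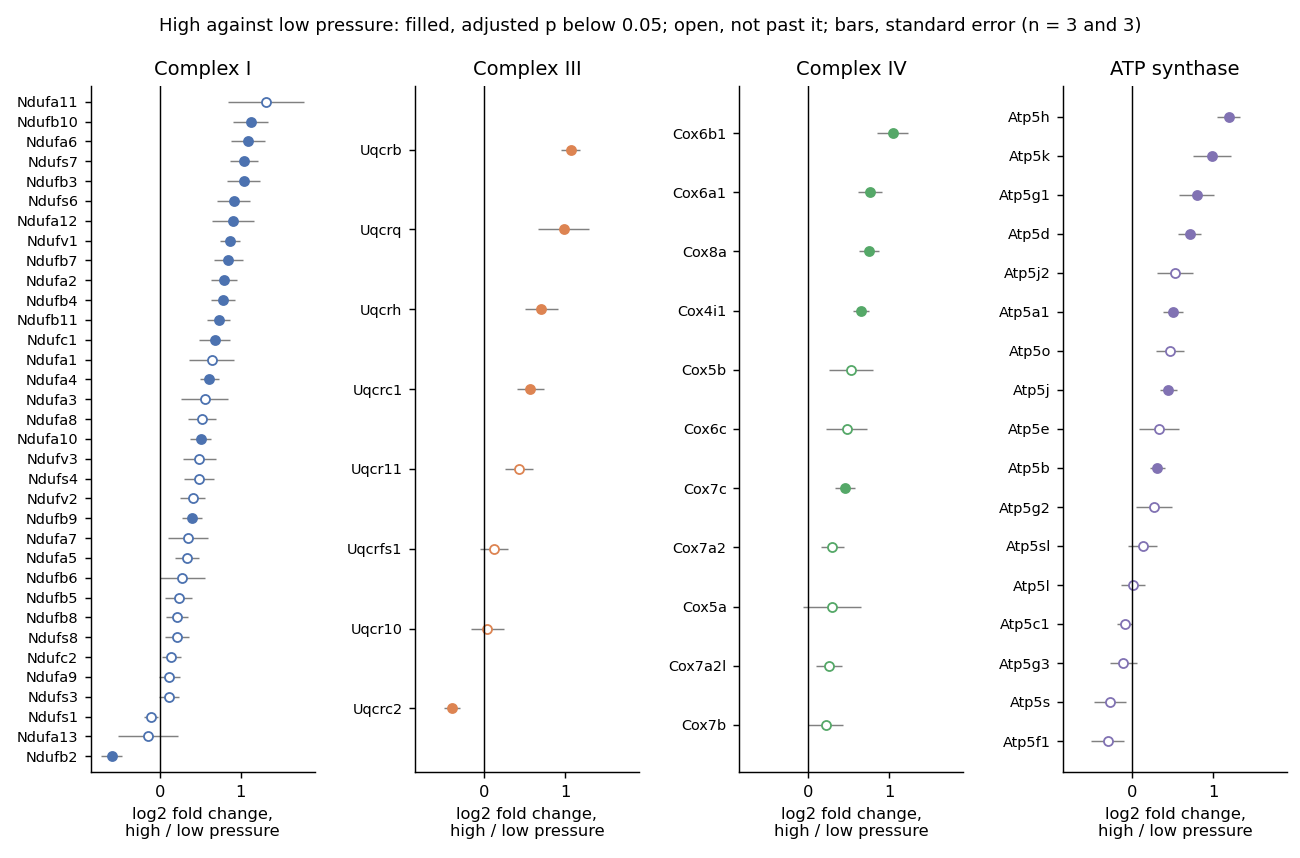
Log2 fold change of high over low pressure (horizontal axis) for tested subunit genes, by complex, with standard errors from 3 libraries per group. Filled points passed adjusted p below 0.05, most of them on the higher side, with Ndufb2 and Uqcrc2 on the lower side.

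In complex I, core subunit genes that rose included Ndufv1 and Ndufs7. Ndufv1, which holds the flavin where NADH is oxidised, had 52.3, 52.1 and 49.1 CPM at high pressure, against 29.6, 30.9 and 23.9 at low pressure. The groups lay far apart relative to their spread, at a log2 ratio of 0.86 (SE 0.12, adjusted p = 0.0023). Ndufs7, which carries the last iron-sulfur cluster before quinone, had 26.3, 23.4 and 23.5 CPM at high pressure, against 12.2, 14.3 and 9.14 at low pressure. Its groups did not overlap either (log2 fold change 1.04, SE 0.18, adjusted p = 0.0045). The offsets for GC content and length left Ndufs7 at 0.50 (adjusted p = 0.061). Ndufs1, the largest iron-sulfur subunit, gave 117, 113 and 107 CPM at high pressure and 118, 117 and 127 CPM at low pressure. Those groups overlapped, and the value of -0.10 on the log2 scale (SE 0.08) did not pass (adjusted p = 0.40). The core subunits Ndufs3, Ndufs8 and Ndufv2 had log2 fold changes of 0.11, 0.21 and 0.41 and did not pass. Ndufv2 was called without low pressure replicate 3 (0.25, adjusted p = 0.0499) and with the offsets (0.47, adjusted p = 0.026).

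Among the 27 tested accessory subunits of complex I, which surround the core and are needed for its assembly and stability, 12 rose and 1 fell. Of all genes 14.0% rose and 12.2% fell. Ndufb10, of the membrane arm, had 25.3, 25.4 and 25.2 CPM at high pressure, against 11.9, 15.1 and 7.86 at low pressure (log2 fold change 1.12, SE 0.22, adjusted p = 0.0076). Ndufa6 had 7.02, 6.96 and 8.74 CPM at high pressure, against 3.45, 3.43 and 3.80 at low pressure (1.09, SE 0.21, adjusted p = 0.0068). For both genes the lowest high pressure library lay above the highest low pressure library. With the GC and length offsets 2 of the 27 rose (Ndufs4 and Ndufb3) and 1 fell, where 10.2% of all genes rose and 10.6% fell. Ndufb10 and Ndufa6 were then at 0.65 (adjusted p = 0.051) and 0.66 (adjusted p = 0.058). The largest fitted value belonged to Ndufa11, a membrane subunit, with 5.70, 6.03 and 4.87 CPM at high pressure and 3.17, 2.78 and 0.703 CPM at low pressure. Although the groups did not overlap, low pressure replicate 3 lay well below its partners and the value of 1.31 (SE 0.47) did not pass (adjusted p = 0.072). Without that library it was 0.90 and passed (adjusted p = 0.0093). Ndufa8 lay just outside the threshold (0.52, adjusted p = 0.055) and inside it without that library (0.70, adjusted p = 0.0018).

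Ndufb2, an accessory subunit of the membrane arm, went the other way. It had 10.8, 11.6 and 11.5 CPM at high pressure, against 18.0, 16.3 and 16.8 at low pressure, which is a fall (log2 fold change -0.59, SE 0.13, adjusted p = 0.012). Every high pressure library lay below every low pressure library, and the fall was larger with the GC and length offsets (-1.01, adjusted p = 0.0021). In the fit of all 15 libraries its value was -0.60 and did not pass (adjusted p = 0.34). The exons of Ndufb2 (chr6:39592574-39603382, GRCm38, plus strand) overlap those of Braf and of the antisense gene Gm16272, so its reads cannot be assigned with certainty. Ndufa13, a subunit also known as GRIM-19, gave 38.6, 43.0 and 43.8 CPM at high pressure and 29.4, 28.3 and 81.5 CPM at low pressure. Low pressure replicate 3 decided the sign: the log2 fold change was -0.15 (SE 0.37, adjusted p = 0.80) with it and 0.54 (adjusted p = 0.0015) without it.

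In complex III, 3 of the 5 small subunits rose (14.0% of all genes did), and the larger subunits were mixed. Uqcrb, which lies near the ubiquinone site, had 26.9, 26.0 and 26.8 CPM at high pressure, against 13.02, 11.995 and 12.97 at low pressure. It had the smallest adjusted p of all 71 genes, and its replicates hardly differed within either group (log2 fold change 1.07, SE 0.12, adjusted p = 0.0010). Uqcrh, the hinge protein that binds cytochrome c1, had 90.0, 95.3 and 105 CPM at high pressure, against 61.7, 75.5 and 40.1 at low pressure (0.71, SE 0.20, adjusted p = 0.034). Uqcrq, a small membrane subunit, lay just inside the threshold (0.98, SE 0.31, adjusted p = 0.0498). Of the 2 core proteins, Uqcrc1 rose, with 152, 153 and 155 CPM at high pressure, against 124, 111 and 74.1 at low pressure (0.57, SE 0.17, adjusted p = 0.038). The other, Uqcrc2, fell by 0.39 (SE 0.10, adjusted p = 0.019), with 162, 191 and 196 CPM at high pressure, against 245, 243 and 232 at low pressure. Both core protein genes were thus separated between the groups without overlap, in opposite directions. In the fit of all 15 libraries Uqcrc2 did not pass (-0.39, adjusted p = 0.40). Under the GC and length offsets Uqcrc1 (0.24, adjusted p = 0.35), Uqcrh (0.42, adjusted p = 0.12) and Uqcrq (0.51, adjusted p = 0.28) did not pass. Uqcrfs1, the Rieske iron-sulfur subunit, overlapped between the groups, with 82.4, 89.5 and 82.0 CPM at high pressure and 61.4, 70.7 and 101 CPM at low pressure (0.13, adjusted p = 0.62). Without low pressure replicate 3 its value was 0.36 and passed (adjusted p = 0.0085). Uqcr10 also overlapped, at 0.04 (adjusted p = 0.90) with that library and -0.11 (adjusted p = 0.63) without it. Exons of Uqcrc2 overlap those of Pdzd9 and exons of Uqcrb those of Gm10767.

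In complex IV, 5 of the 10 structural subunit genes rose (Cox4i1, Cox6a1, Cox6b1, Cox7c and Cox8a), where 14.0% of all genes did. Ndufa4 rose as well. Cox6b1, on the side of the complex that faces cytochrome c, had 111, 114 and 125 CPM at high pressure, against 63.0, 68.0 and 38.8 at low pressure (log2 fold change 1.04, SE 0.19, adjusted p = 0.0059). Cox4i1, the common isoform of subunit IV, had 83.7, 73.0 and 76.5 CPM at high pressure, against 49.0, 52.1 and 46.9 at low pressure (0.66, SE 0.10, adjusted p = 0.0027). Neither gene overlapped between the groups. Cox6a1 (0.76, SE 0.14, adjusted p = 0.0067) and Cox8a (0.75, SE 0.12, adjusted p = 0.0038), small membrane subunits, were of like size. Only Cox6b1 of the 10 passed with the GC and length offsets, upward, where 10.2% of all genes rose. Cox4i1, Cox6a1, Cox7c and Cox8a were then at 0.13, 0.21, 0.20 and 0.21 (adjusted p = 0.22 to 0.38). Ndufa4 had 82.0, 92.3 and 82.6 CPM at high pressure, against 63.1, 56.8 and 48.6 at low pressure (0.61, SE 0.12, adjusted p = 0.0073). Cox5a, a matrix-side subunit, gave 282, 344 and 319 CPM at high pressure and 332, 332 and 106 CPM at low pressure. Its groups overlapped, low pressure replicate 3 was far below the other 5 libraries, and the value of 0.29 (SE 0.36) did not pass (adjusted p = 0.59). Without that library the sign turned (-0.08, adjusted p = 0.52). Cox7b and Cox7a2l were 2 others with overlapping groups, at 0.22 (adjusted p = 0.49) and 0.26 (adjusted p = 0.26). Cox7a2l was called without low pressure replicate 3 (0.46, adjusted p = 0.0038).

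In ATP synthase, 3 of the 5 genes of the F1 head and central stalk rose (Atp5a1, Atp5b and Atp5d), as did 2 of the 4 of the peripheral stalk (Atp5h and Atp5j), 1 of the 3 c-ring genes (Atp5g1) and 1 of the 3 small membrane subunits (Atp5k). Of all genes 14.0% rose. Atp5h, subunit d of the peripheral stalk (chr11:115415689-115419962, GRCm38, minus strand), had the largest change of the complex. It had 80.2, 76.3 and 83.6 CPM at high pressure, against 38.4, 38.8 and 28.2 at low pressure (log2 fold change 1.19, SE 0.14, adjusted p = 0.0011). Atp5k, subunit e, had 10.5, 11.0 and 11.1 CPM at high pressure, against 6.34, 6.37 and 3.71 at low pressure (0.98, SE 0.23, adjusted p = 0.016). The groups of both genes lay apart. The 2 genes of the catalytic head, with the highest counts of all subunit genes, moved less than Atp5h and Atp5k. Atp5a1, the alpha subunit, had 843, 832 and 817 CPM at high pressure, against 637, 649 and 478 at low pressure (0.50, SE 0.13, adjusted p = 0.021). Atp5b, the beta subunit, had 994, 1025 and 1016 CPM at high pressure, against 766, 800 and 887 at low pressure (0.31, SE 0.09, adjusted p = 0.040). Both pairs of groups were separated. Atp5f1, subunit b of the peripheral stalk, and Atp5s had the lowest values, -0.30 (SE 0.20, adjusted p = 0.30) and -0.28 (SE 0.20, adjusted p = 0.33), and neither passed. Atp5f1 had 109.5, 113 and 106 CPM at high pressure and 108, 109 and 189 CPM at low pressure. Without the high library, low pressure replicate 3, its value was 0.02 (adjusted p = 0.87). With the GC and length offsets 2 of the 17 ATP synthase genes rose, Atp5a1 and Atp5h, near the 10.2% of all genes that did. Atp5b was then at 0.18 (adjusted p = 0.22) and Atp5k at 0.64 (adjusted p = 0.078).

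The c-ring is encoded by 3 paralogs that make the same mature protein from different precursors. Atp5g1 rose, with 12.6, 14.0 and 12.6 CPM at high pressure, against 7.46, 9.63 and 5.46 at low pressure (log2 fold change 0.79, SE 0.22, adjusted p = 0.028). Atp5g2 had 109, 123 and 120 CPM at high pressure and 79.8, 73.4 and 139 CPM at low pressure (0.27, SE 0.22, adjusted p = 0.40). Atp5g3, the most abundant, had 328, 398 and 355 CPM at high pressure and 336, 334 and 497 CPM at low pressure (-0.11, SE 0.16, adjusted p = 0.66). In the last 2 the groups overlapped, with low pressure replicate 3 the highest library of all 6. Without it Atp5g2 rose (0.62, adjusted p = 0.00027) and Atp5g3 was at 0.11 (adjusted p = 0.36). Under the GC and length offsets Atp5g1, Atp5g2 and Atp5g3 were at 0.29, -0.21 and -0.46, and none of the 3 passed (adjusted p = 0.13 to 0.57). Reads of the shared coding part could be split between the paralogs, depending on the authors' counting.

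**Figure D3:**
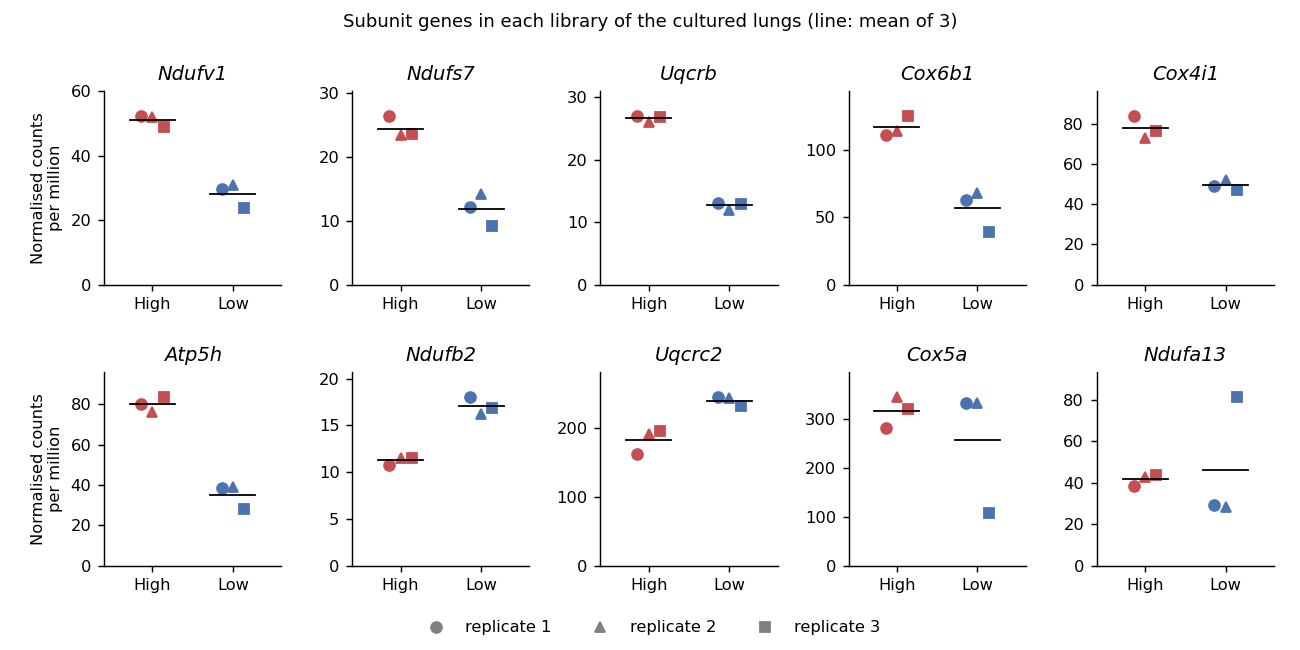
Normalised CPM (vertical axis, from 0) of 10 subunit genes in each cultured library, high pressure left and low pressure right, with replicates by symbol and the mean as a line. Ndufv1, Ndufs7, Uqcrb, Cox6b1, Cox4i1 and Atp5h are separated upward at high pressure, Ndufb2 and Uqcrc2 downward, and in Cox5a and Ndufa13 low pressure replicate 3 lies far from its partners.

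Genes that work beside the 72 were counted in lists, where 14.0% of all genes rose and 12.2% fell in the same test. Of the 4 genes of complex II, which feeds electrons from succinate and pumps no protons, Sdhb and Sdhc rose. Sdhb had 73.5, 83.4 and 75.2 CPM at high pressure, against 50.1, 49.2 and 51.5 at low pressure (log2 fold change 0.62, SE 0.09, adjusted p = 0.0027). Its groups did not overlap. Sdhc changed by 0.56 (adjusted p = 0.014), while Sdha (0.31, adjusted p = 0.16) and Sdhd (0.20, adjusted p = 0.14) did not pass. Ndufab1, the acyl carrier subunit of complex I that the naming rule misses, had 46.9, 46.4 and 42.9 CPM at high pressure, against 25.5, 26.0 and 19.2 at low pressure (0.95, SE 0.14, adjusted p = 0.0026). Cytochrome c (Cycs, 0.47, adjusted p = 0.020) and Usmg5, a small ATP synthase protein (1.13, adjusted p = 0.028), rose. Cyc1, the cytochrome c1 subunit of complex III, was at 0.04 (adjusted p = 0.90), and at -0.19 (adjusted p = 0.065) without low pressure replicate 3. Sdhb did not pass with the GC and length offsets (0.25, adjusted p = 0.092).

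Few assembly factors passed in either direction, where 14.0% of all genes rose and 12.2% fell. For complex I, 1 of 14 rose, Ndufaf3 (0.91, adjusted p = 0.029), and 1 fell, Ndufaf1 (-0.50, adjusted p = 0.027). For complex IV, 1 of 19 rose, Cox14 (1.096, adjusted p = 0.0037), and 2 fell, Coa5 (-0.64, adjusted p = 0.028) and Lrpprc, which stabilises mitochondrial mRNAs (-0.62, adjusted p = 0.0023). By edgeR's test 0 of 3 factors of complex III and 0 of 3 of ATP synthase changed, where 0 and 2 had an unadjusted p under 0.05, the 2 both lower. Of 14 regulators of mitochondrial biogenesis, 0 rose and 2 fell, Gabpb1 (-0.39, adjusted p = 0.019), a GABP subunit, and Tfb2m (-0.67, adjusted p = 0.025), a mitochondrial transcription factor. The coactivator gene Ppargc1a (-0.28, adjusted p = 0.18), Nrf1 (0.02, adjusted p = 0.89), Gabpa (-0.25, adjusted p = 0.13), Tfam (0.23, adjusted p = 0.20) and Esrra (0.27, adjusted p = 0.30) did not pass. Without low pressure replicate 3 Esrra rose (0.45, adjusted p = 0.029) and Nrf1 was at -0.02. With the GC and length offsets Tfam rose (0.40, adjusted p = 0.030), while Ndufaf3 (0.58, adjusted p = 0.13), Coa5 (-0.52, adjusted p = 0.089), Gabpb1 (-0.24, adjusted p = 0.11) and Tfb2m (-0.58, adjusted p = 0.078) did not pass. With the replicate block Cycs, Ndufaf3 and Ndufaf1 did not pass (adjusted p = 0.052, 0.059 and 0.062).

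Of 16 genes of the tricarboxylic acid cycle and pyruvate dehydrogenase, 4 rose, among them Cs, citrate synthase (0.45, adjusted p = 0.0094), Idh3g (0.51, adjusted p = 0.012) and Idh3b (0.63, adjusted p = 0.012), and 1 fell. Of 17 glycolysis genes 0 rose and 8 fell, with a median of -0.49, and of 16 hypoxia response genes 0 rose and 10 fell, with a median of -0.83. Among them, hexokinase Hk2 had 246, 228 and 345 CPM at high pressure, against 624, 707 and 671 at low pressure, and the hypoxia response gene Ndrg1 had 254, 149 and 222, against 595, 627 and 631. Both were thus separated with high pressure below. In this test 14.0% of all genes rose and 12.2% fell. Of 21 protein import genes 2 rose and 3 fell. Of 76 mitochondrial ribosomal protein genes 12 rose (15.8%, near the share of all genes) and 1 fell, with a median of 0.37. Of 10 genes of the integrated stress response 2 rose and 1 fell. Of 76 cytosolic ribosomal protein genes, 55 rose and 0 fell (median 0.75), and of 14 core proteasome genes 8 rose and 0 fell (median 0.57). With the GC and length offsets 31 of the cytosolic ribosomal protein genes rose (median 0.42), 5 of the proteasome genes (median 0.26) and 8 of the mitochondrial ribosomal protein genes (median 0.22), while 12 glycolysis genes fell (median -0.78). In that fit 10.2% of all genes rose and 10.6% fell, and Idh3g did not pass (0.28, adjusted p = 0.093). Without low pressure replicate 3, 25 mitochondrial ribosomal protein genes (32.9%), 6 stress response genes (60%) and 4 import genes (19.0%) rose, while 1, 2 and 3 fell. Of all genes 22.1% rose and 18.9% fell there.

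Cell type markers moved between the cultured groups as well, where 14.0% of all genes rose and 12.2% fell by edgeR's test. The 9 epithelial markers summed to 1445 to 1563 CPM at high pressure, against 796 to 876 at low pressure, with 7 that rose and 1 that fell and none at 0. The 7 mesenchymal markers summed to 3115 to 3829 CPM at high pressure, against 2343 to 2645 at low pressure, with 3 that rose and 3 that fell. The 5 endothelial markers summed to 83.7 to 190 CPM at high pressure and 188 to 294 at low pressure. All 5 had negative log2 fold changes (median -1.24), and 1 fell, where 4 had an unadjusted p under 0.05. With the replicate block 4 of the 5 fell, where 21.0% of all genes passed in either direction. Ribosomal protein genes took 2.92 to 3.20% of counts at high pressure and 1.86 to 2.10% at low pressure. The 13 heart muscle markers stayed at 22.8 to 43.5 CPM in sum at high pressure and 23.7 to 67.7 at low pressure, with Myl2 at 0 in both groups. The part of cell makeup, ribosomal share and pool size in the subunit result was not tested.

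Of 3 tested tissue or oxygen linked isoforms of complex IV subunits, 1 fell at high pressure and 2 did not pass. Cox4i2, the lung and hypoxia linked isoform of subunit IV, fell at high pressure, with 13.4, 9.32 and 14.54 CPM, against 23.3, 27.8 and 25.4 at low pressure (log2 fold change -1.04, SE 0.18, adjusted p = 0.0051). No high pressure library reached the lowest low pressure library, whereas Cox4i1 was separated the other way. In fresh lungs Cox4i2 had 2.65, 2.21 and 1.70 CPM at E12.5, 3.37, 2.29 and 1.66 at E13.5, and 5.50, 3.57 and 3.56 at E14.5. All E14.5 libraries lay above all of both earlier stages, and the rise from E12.5 passed in the fit with replicate numbers as a block (0.94, adjusted p = 0.022). Ndufa4l2, a hypoxia linked relative of Ndufa4, had 7.56, 4.82 and 13.3 CPM at high pressure and 12.2, 11.6 and 11.3 at low pressure, with overlapping groups (-0.45, adjusted p = 0.33). Cox6b2, the testis isoform, was at 0.47 (adjusted p = 0.48). The heart and muscle isoform Cox6a2 had 0.701, 12.3 and 3.35 CPM at E14.5, against 0.0963, 0.226 and 0 at E12.5, and Cox7a1 had 0.701, 1.52 and 0.810 CPM, against 0.0482, 0.0903 and 0.100. Both rose with the block (adjusted p = 0.0030 and 0.0077). The 13 heart muscle markers summed to 400 to 1669 CPM at E14.5, against 36.9 to 54.7 at E12.5. With the block 8 of the 11 tested rose, where 7.33% of all genes did, and in the fit by stage alone 0 of the 11 rose. The part of attached heart muscle in these values was not tested.

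**Figure D4:**
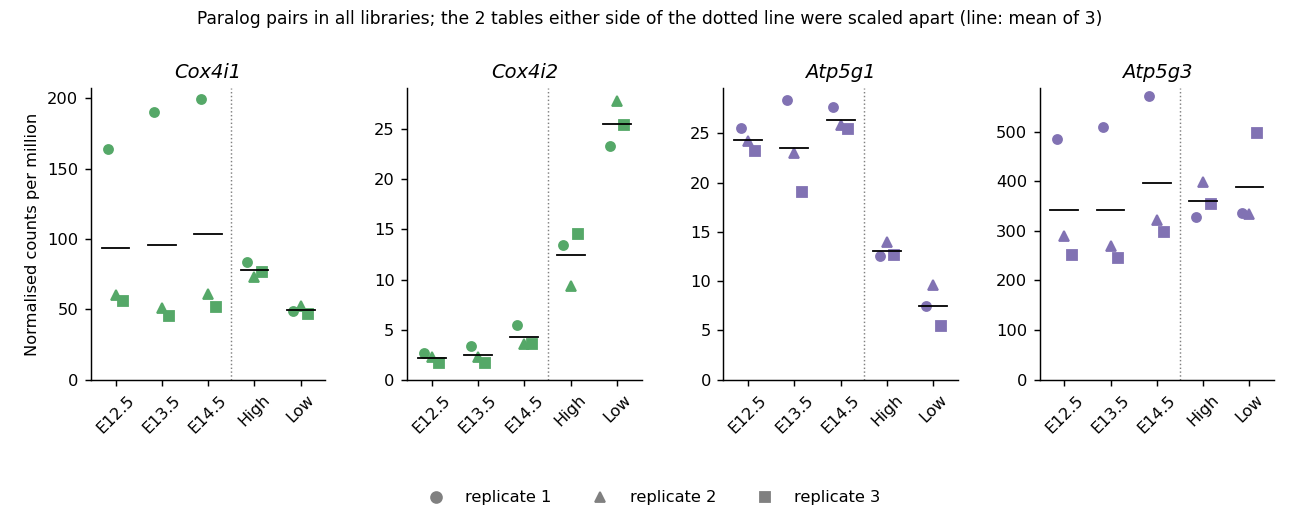
Normalised CPM (vertical axes, from 0) of Cox4i1, Cox4i2, Atp5g1 and Atp5g3 in all 15 libraries by group, with replicates by symbol and group means as lines. Cox4i1 is higher and Cox4i2 lower at high than at low pressure, and replicate 1 stands above its partners in Cox4i1 and Atp5g3 at each stage.

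The promoters of the subunit genes were read from RefSeq's promoter table (GRCm38.p6, 250 bases before to 50 after each start), which held 64 promoters of 59 of the 72 genes. Both strands were searched for GCGCA, any base and GCGC in a row (NRF1), CCGGAAG (the ETS site bound by GABP) and AAGATGGC (YY1). At least 1 of them was present in 53.1% of the subunit promoters, against 14.7% of all 32851 promoters of that length. The NRF1 letters were in 25.0% of the subunit promoters, against 4.60% of all promoters, the ETS letters in 21.9%, against 8.86%, and the YY1 letters in 14.1%, against 2.75%. Subunit promoters were also richer in GC (median 57.3%, against 52.7%). Promoters of genes that rose at high pressure held a motif in 51.9% of 27 cases, close to the 54.3% of 35 promoters of genes that passed in neither direction. The following stretches of 120 bases before the start show 1 gene per complex that rose, picked because a motif falls in the stretch, and Ndufb2, which fell and has none of the 3 there. Capitals mark the motif letters, on either strand, and each stretch is written 5′ to 3′ in the direction of the gene. They are chr16:37654369-37654488 for Ndufb4, chr4:116075071-116075190 for Uqcrh, chr7:30626115-30626234 for Cox6b1 and chr11:115419920-115420039 for Atp5h, all on the minus strand, and chr6:39592445-39592564 on the plus strand for Ndufb2. Starts are those of RefSeq and can differ from the gene bounds given above, which come from the GENCODE annotation of the same build.
Ndufb4: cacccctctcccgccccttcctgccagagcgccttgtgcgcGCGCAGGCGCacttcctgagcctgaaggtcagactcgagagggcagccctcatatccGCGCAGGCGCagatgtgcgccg
Uqcrh: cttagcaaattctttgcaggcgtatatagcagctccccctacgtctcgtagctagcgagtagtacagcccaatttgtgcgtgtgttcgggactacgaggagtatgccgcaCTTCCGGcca
Cox6b1: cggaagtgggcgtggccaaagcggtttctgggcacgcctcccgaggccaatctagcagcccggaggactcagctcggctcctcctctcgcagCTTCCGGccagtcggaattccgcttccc
Atp5h: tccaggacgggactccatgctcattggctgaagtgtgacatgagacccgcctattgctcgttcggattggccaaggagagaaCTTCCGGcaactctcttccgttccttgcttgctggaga
Ndufb2: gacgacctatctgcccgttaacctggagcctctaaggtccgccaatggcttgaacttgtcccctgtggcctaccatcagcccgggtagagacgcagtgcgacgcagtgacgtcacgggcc
Ndufb4 holds the NRF1 letters 2 times, and Uqcrh, Cox6b1 and Atp5h each hold the ETS letters in reverse (CTTCCGG). Ndufb4, an accessory subunit of complex I, had 14.3, 16.2 and 13.9 CPM at high pressure, against 8.67, 8.01 and 9.30 at low pressure (log2 fold change 0.78, SE 0.15, adjusted p = 0.0071).

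Between embryonic stages the subunit genes moved little, and the replicate number mattered more than age. In the fit by stage alone, edgeR called 0 of the 14242 genes tested (0.0%) in each of the 3 comparisons, so also 0 of the 71 subunit genes. At an unadjusted p under 0.05 there were 0 subunit genes up and 1 down for E13.5 against E12.5, 2 up and 0 down for E14.5 against E13.5, and 2 up and 0 down for E14.5 against E12.5. DESeq2 called 0 subunit genes in each, where it called 0.0, 1.63 and 2.86% of all genes. Same-numbered libraries of different stages deviated together from their stage means, with correlations of 0.54 to 0.90 over 9 pairs. Replicates 2 and 3 did so across numbers (0.56 to 0.74) as well as within a number (0.54 to 0.71). Replicate 1 and the others were at -0.82 to -0.65. The number thus set replicate 1 apart, while replicates 2 and 3 may not be true pairs by number. Means of 3 libraries tie replicates 2 and 3 together wherever replicate 1 stands apart, so their correlations cannot show pairing. With these limits, the fit with the replicate number as a block is given beside the fit by stage alone. It called 1 gene (0.00702%) for E13.5 against E12.5, 856 (6.01%) for E14.5 against E13.5 and 1561 (11.0%) for E14.5 against E12.5. Of the subunit genes it called 0, 3 and 2, all upward, where 4.15% and 7.33% of all genes rose in the last 2 comparisons. Median log2 fold changes of the subunit genes were -0.06, 0.16 and 0.10 with the block and -0.02, 0.15 and 0.14 without it. With GC and length offsets added to the block, 0, 3 and 4 subunit genes passed, where 0.00713, 9.05 and 17.8% of all genes did.

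For E14.5 against E13.5 the block fit called Cox7b, Atp5e and Ndufb11, and for E14.5 against E12.5 Atp5e and Ndufb2. Atp5e, the epsilon subunit of the F1 central stalk, had 44.4, 40.8 and 41.9 CPM at E12.5, 45.4, 35.0 and 46.4 at E13.5, and 53.4, 54.7 and 70.6 at E14.5. All E14.5 libraries lay above all earlier ones, and its log2 fold change was 0.50 over E13.5 (SE 0.11, adjusted p = 0.021) and 0.48 over E12.5 (SE 0.11, adjusted p = 0.016). It also passed with replicate 1 of every stage left out (0.62, adjusted p = 0.048, over E13.5, and 0.58, adjusted p = 0.022, over E12.5). Ndufb2 had 19.8, 34.0 and 43.0 CPM at E12.5, 20.6, 48.2 and 38.7 at E13.5, and 24.5, 57.9 and 62.7 at E14.5. Here replicate 1 was the lowest at each stage, and within each number E14.5 was above E12.5 (0.54, SE 0.12, adjusted p = 0.020, and 0.65, adjusted p = 0.043, without replicate 1).

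Cox7b, a small subunit of complex IV, had 46.8, 49.7 and 42.9 CPM at E12.5, 33.0, 32.4 and 25.6 at E13.5, and 54.9, 65.0 and 35.3 at E14.5. It dipped at E13.5, where all 3 libraries were the lowest of the series. Its value for E14.5 over E13.5 was 0.75 (SE 0.12, adjusted p = 0.0077), and 0.75 (adjusted p = 0.081) without replicate 1 of every stage. For E13.5 over E12.5 it was -0.62 (SE 0.12), the lowest of the 71, and did not pass (adjusted p = 1.0). Ndufb11, of the membrane arm of complex I, had 66.9, 44.2 and 41.2 CPM at E12.5, 71.7, 41.1 and 36.4 at E13.5, and 90.4, 49.999 and 46.2 at E14.5. The stages overlapped while each numbered pair gave E14.5 above E13.5 (0.32, SE 0.08, adjusted p = 0.047, and 0.31, adjusted p = 0.21, without replicate 1). Just outside the threshold lay Atp5g3, at adjusted p = 0.059 over E13.5 and 0.057 over E12.5.

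By numbered pair, E13.5 lay above E12.5 for 64 of the 71 genes in replicate 1, but for 10 in replicate 2 and 8 in replicate 3, with medians of 0.15, -0.14 and -0.20. E14.5 lay above E13.5 for 53, 57 and 56 genes, with medians of 0.08, 0.16 and 0.19. E14.5 lay above E12.5 for 70, 39 and 35 genes, with medians of 0.26, 0.01 and -0.01. Of all genes 47.8 to 52.4% lay above in these pairs, with medians of -0.01 to 0.01. The step to E13.5 thus ran in opposite directions in replicate 1 and in the other 2 replicates. Replicates 2 and 3 may not be true pairs by number, so counts over all 3 pairs depend on this matching. For E14.5 against E13.5, 36 of 71 genes were higher in all 3 pairs (24.7% of all genes) and 1 lower (22.7%). For E14.5 against E12.5, 28 were higher in all pairs (25.2%) and 1 lower (23.2%), and for E13.5 against E12.5, 0 were higher (10.9%) and 4 lower (10.4%). Those 4 were Cox7b, Atp5f1, Atp5sl and Ndufb9, the last a complex I accessory subunit. Whole stages rarely separated. All 3 libraries of the later stage lay above for 0 of 71 genes and below for 1 at E13.5 against E12.5 (1.59 and 1.52% of all genes). The counts were 4 above and 0 below at E14.5 against E13.5 (7.84 and 4.14%), and 3 above and 0 below at E14.5 against E12.5 (8.76 and 5.33%).

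**Figure D5:**
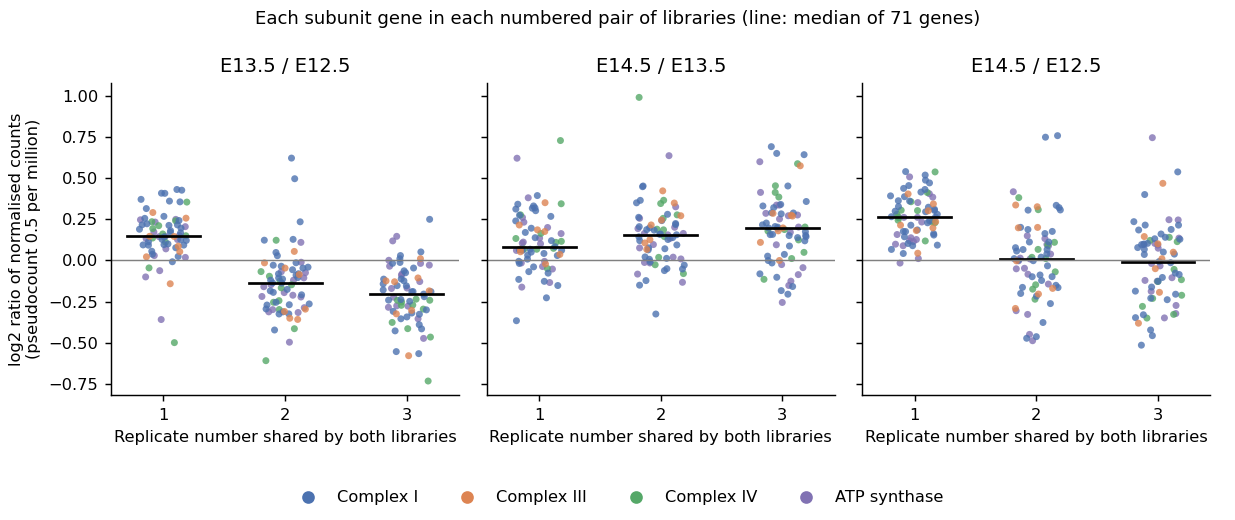
Log2 ratio of normalised CPM (vertical axis, pseudocount 0.5) for each of 71 subunit genes in the 3 numbered pairs of libraries of each stage comparison, coloured by complex, with the median as a line. In replicate 1 E13.5 lies above E12.5 (median 0.15), in replicates 2 and 3 below it (medians -0.14 and -0.20), while E14.5 lies above E13.5 in all 3 (0.08 to 0.19).

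Values by stage without the block, the extremes of each complex, were small throughout. In complex I, E14.5 over E12.5 ran from -0.20 in Ndufa7, -0.08 in Ndufs6 and -0.04 in Ndufb8 to 0.37 in Ndufa8, 0.44 in Ndufa13 and 0.58 in Ndufb2. In complex III it ran from -0.09 in Uqcrq, 0.07 in Uqcrc1 and 0.08 in Uqcr11 to 0.20 in Uqcrb, 0.23 in Uqcrfs1 and 0.35 in Uqcr10. In complex IV it ran from -0.07 in Cox6c, -0.02 in Cox7a2 and -0.01 in Cox7c to 0.20 in Cox5a, 0.23 in Cox8a and 0.34 in Cox6b1. ATP synthase ran from -0.18 in Atp5sl, -0.16 in Atp5j2 and -0.03 in Atp5o to 0.21 in Atp5s, 0.21 in Atp5g3 and 0.49 in Atp5e. None of these passed edgeR's test.

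For E14.5 over E13.5 the ranges were like these. Complex I ran from -0.10 in Ndufa7, -0.07 in Ndufa11 and -0.06 in Ndufs7 to 0.32 in Ndufb11, 0.33 in Ndufb4 and 0.43 in Ndufb2. Complex III ran from 0.07 in Uqcrc1, 0.14 in Uqcrb and 0.15 in Uqcrh to 0.23 in Uqcr11, 0.24 in Uqcrfs1 and 0.37 in Uqcr10, so that all 8 of its genes were positive. Complex IV ran from -0.01 in Cox7a2, 0.06 in Cox6c and 0.07 in Cox7c to 0.27 in Cox5a, 0.38 in Cox8a and 0.77 in Cox7b. ATP synthase ran from -0.06 in Atp5j2, -0.03 in Atp5o and 0.00 in Atp5d to 0.23 in Atp5l, 0.31 in Atp5s and 0.49 in Atp5e.

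For E13.5 over E12.5 the values lay around 0. The complex I extremes were -0.17 in Ndufb7, -0.11 in Ndufa1 and -0.11 in Ndufa7 on the lower side, and 0.17 in Ndufs7, 0.19 in Ndufa5 and 0.25 in Ndufa13 on the higher side. Complex III had Uqcrq at -0.26, Uqcr11 at -0.15 and Uqcrc2 at -0.06, with Uqcrc1 at 0.01, Uqcrh at 0.03 and Uqcrb at 0.06 at the other end. In complex IV, Cox7b at -0.62, Cox8a at -0.15 and Cox6c at -0.13 were lowest and Cox7a2 at -0.01, Cox4i1 at 0.03 and Cox6b1 at 0.08 highest. In ATP synthase, Atp5sl at -0.20, Atp5f1 at -0.10 and Atp5l at -0.10 were lowest and Atp5d at 0.03, Atp5a1 at 0.04 and Atp5h at 0.06 highest. No value passed the test, and Cox7b alone had stages that did not overlap.

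The replicate number itself split the subunit genes. In all 3 stages replicate 1 lay above the mean of replicates 2 and 3 for 51 of the 71 genes (43.0% of all genes) and below it for 13 (36.0%), with a median log2 difference of 0.74, against 0.06 over all genes. The largest was that of Cox6b1 (2.35), with 164, 42.2 and 39.4 CPM at E12.5, 187, 38.7 and 33.4 at E13.5, and 238, 42.8 and 30.8 at E14.5. Within replicate 1 its level climbed with stage, and within replicate 3 it declined. Atp5d (1.85), Uqcrb (1.83), Ndufs7 (1.80) and Cox4i1 (1.76) came next, and Cox4i1 had 164, 60.4 and 55.7 CPM at E12.5, 190, 50.9 and 45.3 at E13.5, and 199, 60.9 and 51.3 at E14.5. At the other end were Ndufb2 (-1.09), Cox5a (-0.996), Uqcrc2 (-0.78), Ndufa1 (-0.68) and Atp5l (-0.45). Cox5a had 155, 285 and 323 CPM at E12.5, 150, 310 and 267 at E13.5, and 168, 353 and 356 at E14.5, so that replicate 1 stood apart downward.

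Core subunits differed in how they split by replicate number. Ndufv1 had 88.2, 36.0 and 25.2 CPM at E12.5, 90.5, 28.6 and 26.1 at E13.5, and 92.4, 32.1 and 26.1 at E14.5. Atp5b had 1484, 809 and 667 CPM at E12.5, 1503, 663 and 668 at E13.5, and 1612, 830 and 713 at E14.5. In both genes replicate 1 was far above its partners and the stages did not differ beyond that spread. In Ndufs1 replicate 1 was not the high library, with 166, 192 and 175 CPM at E12.5, 168, 178 and 168 at E13.5, and 176, 243 and 192 at E14.5. Uqcrfs1 had 96.1, 67.8 and 64.4 CPM at E12.5, 102, 65.6 and 59.0 at E13.5, and 119, 77.8 and 71.3 at E14.5, with E14.5 the highest stage within each number. The c-ring genes differed in the size of this split. Atp5g1 ran from 19.0 to 28.4 CPM over the fresh libraries. Its mean replicate 1 difference was 0.22 on the log2 scale, against 0.91 for Atp5g3. Atp5g3 had 485, 290 and 250 CPM at E12.5, 510, 269 and 246 at E13.5, and 571, 322 and 297 at E14.5.

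Most of the genes that rose at high pressure were high in replicate 1 of the fresh lungs, as were most of all 71 genes. Of the 32 that rose, 27 were higher in replicate 1 at all 3 stages and 1 was lower. Of the 37 that passed in neither direction 24 were higher and 10 lower, and of all 71 genes 51 were higher and 13 lower. Both genes that fell, Ndufb2 and Uqcrc2, were lower in replicate 1 at all stages. Across the 71 genes the log2 fold change at high pressure and the replicate 1 difference had a Pearson correlation of 0.55, given as a description, since genes of one library share its depth and RNA. Over 13816 genes with a known length the same value was 0.44. The median transcript length was 620.5 bases for the genes that rose and 861 for those that passed in neither direction. Beyond the offsets above, the part of transcript length in either contrast was not tested.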

How the data were processed

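Per the labels' protocols, RNA was extracted from pooled whole lungs with a QIAGEN RNeasy fibrous tissue kit and libraries were made with a PrepX kit. The tools named in the submitters' processing notes are cutadapt 1.6, Bowtie 1.1.1, TopHat, HTSeq and DESeq2, with build mm10 (GRCm38). Of the counting, neither annotation nor filters nor strand setting is given in the sources used here. Reads of overlapping genes therefore cannot be told apart: 27 of the 72 members have exons that overlap another gene. The authors deposited raw counts per gene as 1 table of 6 cultured and 1 of 9 fresh libraries, the input of all fits here. Deposited normalized and log2 tables were not used.

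Each table was fitted alone over all genes with edgeR 4.0.16 in R 4.3.3: filterByExpr (minimum count 10), TMM scaling, robust quasi-likelihood F-test, and Benjamini-Hochberg adjustment with a threshold of 0.05. All adjusted p-values come from this test, 2-sided, unless DESeq2 (1.42.0) is named. The SE is the log2 fold change divided by the square root of F. CPM are counts scaled to the TMM library size. Levels per kilobase divide mean CPM by transcript length. Stages were compared in 1 fit of 9 libraries. The offsets for GC content and length were fitted per library with mgcv 1.9.3. The fitting steps were tested on simulated data with 200 changed genes. In the time series, deviations of same-numbered libraries from their stage means had r of 0.54 to 0.90 over 9 pairs (other pairs -0.82 to 0.74). With 3 libraries per stage, a replicate 1 that stands apart gives replicates 2 and 3 a common deviation. The values therefore set replicate 1 apart but cannot show pairing of numbers 2 and 3. In cultured libraries same-numbered pairs were at -0.028 to 0.0036. What a replicate number stands for is not in the labels. Counts of replicates of a group differed beyond sampling noise in every pair.

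A few single-gene results are not reported here. The members, gene lists and tests were chosen with earlier results of these data known. Named are, per comparison and complex, the 3 highest and 3 lowest log2 fold changes, genes that moved against their complex, genes nearest the threshold, the c-ring paralogs and fixed core subunits, and of each companion list up to 3 genes with the smallest p. Genes chosen after their values were seen are those called by other fits, those extreme in replicate 1 and the genes shown with promoters.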

Additional observations from a re-analysis of the deposited data

How the results depend on the processing

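At high against low pressure, TMM or median-of-ratios scaling, the filter on low counts, DESeq2 and the replicate block left the number of called subunit genes within 1.5 times of 34 (DESeq2 35 up and 2 down, replicate block 29 up and 2 down, 27 of the 32 shared). It was 12 with GC and length offsets, 11 with these and the replicate block, 6 in 1 fit of all 15 libraries (6 up and 0 down), and 19 to 45 when 1 library was left out. The median log2 fold change of 0.49 was 0.19 with the offsets, 0.21 with offsets and replicate block, and 0.46 to 0.52 with 1 library left out. Ndufa13 ran from -0.40 to 0.54 with 1 library left out and was called with the opposite sign without low pressure replicate 3. The cause was not tested. For the stages, the count of 0 stayed at 0 under other scaling, no filter, DESeq2 and each library left out. For E14.5 against E12.5 it was 2 with the replicate block, 2 with a term for replicate 1, 4 with offsets and replicate block, 2 with the block and no replicate 1, and 0 to 4 with the block and 1 library left out. For E14.5 against E13.5 it was 3 with the replicate block, 3 with offsets and block, 1 with the block and no replicate 1, and 0 to 5 with the block and 1 library left out. With 1 library left out and no block, medians were -0.39 to 0.19 for E13.5 against E12.5, -0.14 to 0.47 for E14.5 against E13.5 and -0.15 to 0.32 for E14.5 against E12.5.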

Other observations

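For the companions of the subunit genes the fit with the replicate block gave the following, where 11.0% of all genes passed. For E14.5 against E12.5, 0 of 76 mitochondrial ribosomal protein genes, 0 of 4 complex II genes and 0 of 19 complex IV assembly factors passed edgeR's test. At an unadjusted p under 0.05 these were 2 up and 2 down, 0 and 0, and 1 and 0. Of 14 complex I assembly factors 0 rose and 1 fell, Tmem186 (-0.40, adjusted p = 0.021). Of 16 genes of the tricarboxylic acid cycle and pyruvate dehydrogenase 2 rose, Idh3a among them (log2 fold change 0.38, adjusted p = 0.019). Of 17 glycolysis genes 2 rose, Hk1 (0.47, adjusted p = 0.042) and Pfkp (1.39, adjusted p = 0.047), and 1 fell, Hk2 (-0.38, adjusted p = 0.0062). Of 14 regulators 2 fell, Peo1 (-0.27, adjusted p = 0.039) and Pprc1 (-0.24, adjusted p = 0.044), and the coactivator gene Ppargc1a was at 1.03 (adjusted p = 0.098). The 5 endothelial markers all rose, and 2 of 7 erythroid markers fell.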
